A study of Mus musculus with 6 samples.

Results

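A set of 44 genes for lysosomal hydrolases, lysosomal membrane proteins and their regulators was followed in cultured fibroadipogenic progenitors (FAPs), the mesenchymal progenitors of skeletal muscle, with and without senescence induced by etoposide. The genes were chosen by name, though with earlier results of these data known. The deposited table lists 16894 genes and holds 43 of the 44, and all 43 were among the 14776 genes tested. Ctss (cathepsin S) is not listed in the table used here. Bulk RNA-seq covered 6 libraries. The 3 control libraries came from non-senescent FAPs, and the 3 senescent libraries came from FAPs given 20 μM of etoposide, a topoisomerase poison that breaks DNA, for 48 h and then grown in normal medium for 5 days. Both groups were primary FAPs from hind limb muscles of C57BL/6 mice of both sexes, 3 to 6 months old, sorted with magnetic beads as CD45-/CD31-/α7-integrin-/SCA-1+ cells and cultured with bFGF at 3% O2. The labels do not say whether the 3 libraries of a group came from separate animals or cultures, so p values measure the spread between these libraries, which may be technical.

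Lysosomes are acidic organelles in which proteases, glycosidases, sulfatases and lipases digest material delivered by endocytosis and autophagy. Their enzymes are made as precursors, carried from the Golgi by sorting receptors and activated at the low pH that the vacuolar ATPase maintains, while heavily glycosylated proteins such as LAMP1 and LAMP2 line the limiting membrane. The transcription factor TFEB and its relatives bind an E-box-like sequence, the CLEAR element, upstream of many lysosomal genes. Beta-galactosidase, the product of Glb1, is the enzyme behind the senescence-associated beta-galactosidase stain, by which senescent cells are commonly recognised.

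The promoters of a few of these genes are shown first because the CLEAR core, TCACGTG, is present in some of the genes that rose with etoposide and in some that did not. RefSeq promoter sequences (build GRCm38.p6, 250 bases before to 50 bases after the transcription start) were at hand for 39 of the 44 genes, and not for Asah1, Ctsb, Ctsh, Galns and Npc1. TCACGTG was searched on both strands, the other strand reading CACGTGA, and each match within the bases shown is in capitals below. Ctsd had a further match on the other strand, starting at -245, outside the bases shown. The 8-base palindrome TCACGTGA holds both readings in overlap. Each line shows 120 bases, from -250 to -131 in Gla and from -120 to -1 in the others, counted from the RefSeq start. Ctsd, Gla, Mcoln1 and Sgsh had more transcript in senescent FAPs, Glb1 and Lamp1 did not differ by the test, and Tpp1 had more transcript but no match in its window.
Ctsd, chr7:142387828-142387947, minus strand: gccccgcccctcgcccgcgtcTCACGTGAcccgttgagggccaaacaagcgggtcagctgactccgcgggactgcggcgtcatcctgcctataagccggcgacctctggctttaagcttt
Gla, chrX:134601136-134601255, minus strand: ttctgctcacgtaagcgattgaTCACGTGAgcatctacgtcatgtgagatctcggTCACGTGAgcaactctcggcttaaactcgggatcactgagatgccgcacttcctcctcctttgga
Mcoln1, chr8:3500399-3500518, plus strand: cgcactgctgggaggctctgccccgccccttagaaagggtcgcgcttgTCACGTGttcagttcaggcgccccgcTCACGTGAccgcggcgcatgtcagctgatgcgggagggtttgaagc
Sgsh, chr11:119355511-119355630, minus strand: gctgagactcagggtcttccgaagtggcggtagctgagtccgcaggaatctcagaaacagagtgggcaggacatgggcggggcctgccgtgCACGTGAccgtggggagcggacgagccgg
Glb1, chr9:114400958-114401077, plus strand: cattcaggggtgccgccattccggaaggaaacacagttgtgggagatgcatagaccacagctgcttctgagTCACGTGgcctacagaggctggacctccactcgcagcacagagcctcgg
Lamp1, chr8:13159041-13159160, plus strand: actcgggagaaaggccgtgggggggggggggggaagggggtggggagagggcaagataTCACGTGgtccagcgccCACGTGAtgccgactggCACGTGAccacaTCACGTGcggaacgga
Tpp1, chr7:105752236-105752355, minus strand: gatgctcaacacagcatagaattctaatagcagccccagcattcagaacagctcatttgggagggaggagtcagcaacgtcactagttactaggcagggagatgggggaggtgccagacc
Lamp1 carried 4 separate stretches in capitals, and Gla 2, each of which reads as the core on both strands.

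TCACGTG was present in 10 of the 39 promoters, those of Arsa, Ctsa, Ctsd, Gaa, Gla, Glb1, Lamp1, Mcoln1, Naglu and Sgsh. That is 25.6% of the lysosomal promoters, against 4.29% of all 27025 promoters of the same length and 6.90% of the 10131 promoters of tested genes. The palindrome TCACGTGA was in 4 promoters (Ctsa, Ctsd, Gla and Mcoln1), or 10.3%, against 1.12% of all promoters and 2.18% of promoters of tested genes. The full CLEAR palindrome, a longer form of the same bases with G before and C after, was in 0 of the 39 promoters. That longer form was in 0.37% of all promoters and 0.829% of promoters of tested genes. Among the lysosomal genes with a promoter entry, the core was present in 5 of the 22 with more transcript in senescent FAPs and in 5 of the 16 others that were tested. The median log2 fold change was 0.26 with the core and 0.40 without it. For the palindrome TCACGTGA the order was reversed, with medians of 0.62 with it and 0.36 without it. The palindrome was present in 3 of the 22 genes with more transcript and in 1 of the 16 others. These differences were not tested. A match describes the letters in this window and does not show that a factor binds there.

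Transcript levels are given as CPM, read counts relative to a library size that already includes edgeR's scaling between libraries. Fold changes are senescent over control on the log2(CPM + 0.5) scale from limma, which understates the change of low genes, and a gene is called higher or lower where the Benjamini-Hochberg adjusted p over all tested genes is under 0.05. Of the 43 lysosomal genes, 24 were higher in senescent FAPs, 1 was lower and 18 were not called. Of all tested genes 21.8% were called higher and 24.3% were called lower, against 55.8% and 2.33% of the lysosomal genes. Their median log2 fold change was 0.33, with a range from -0.46 to 1.43, and 37 of the 43 values were above 0, whereas the median of all tested genes was -0.03. With the libraries scaled by their totals alone, the median of all tested genes moved up by 0.20, to 0.17, the lysosomal median was 0.55 and 32 lysosomal genes were called higher. Of all calls in either direction, 72.1% were then higher, against 47.3% with the deposited scaling. In bulk RNA a change in the make-up of the cells and a change in RNA per cell cannot be told apart.

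All 3 senescent libraries lay above all 3 control libraries for 23 of the 43 genes, against 26.5% of all tested genes, and below them for 2 genes, Grn and Galns, against 30.9%. A stricter rule, asking for a log2 fold change above 1 at p under 0.01 before adjustment, was met by Cd68, Ctsf, Gla and Tpp1, 4 genes of 43, against 6.93% of all tested genes. The other 20 genes called higher did not meet that rule. Among tested genes with a mean level over 100 CPM, 16.3% were higher and 39.5% were lower, whereas 12 of the 20 lysosomal genes in that class were higher and 1 was lower. Between 10 and 100 CPM, 11 of 21 lysosomal genes were higher, against 18.1% of all genes in the class.

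**Figure D1:**
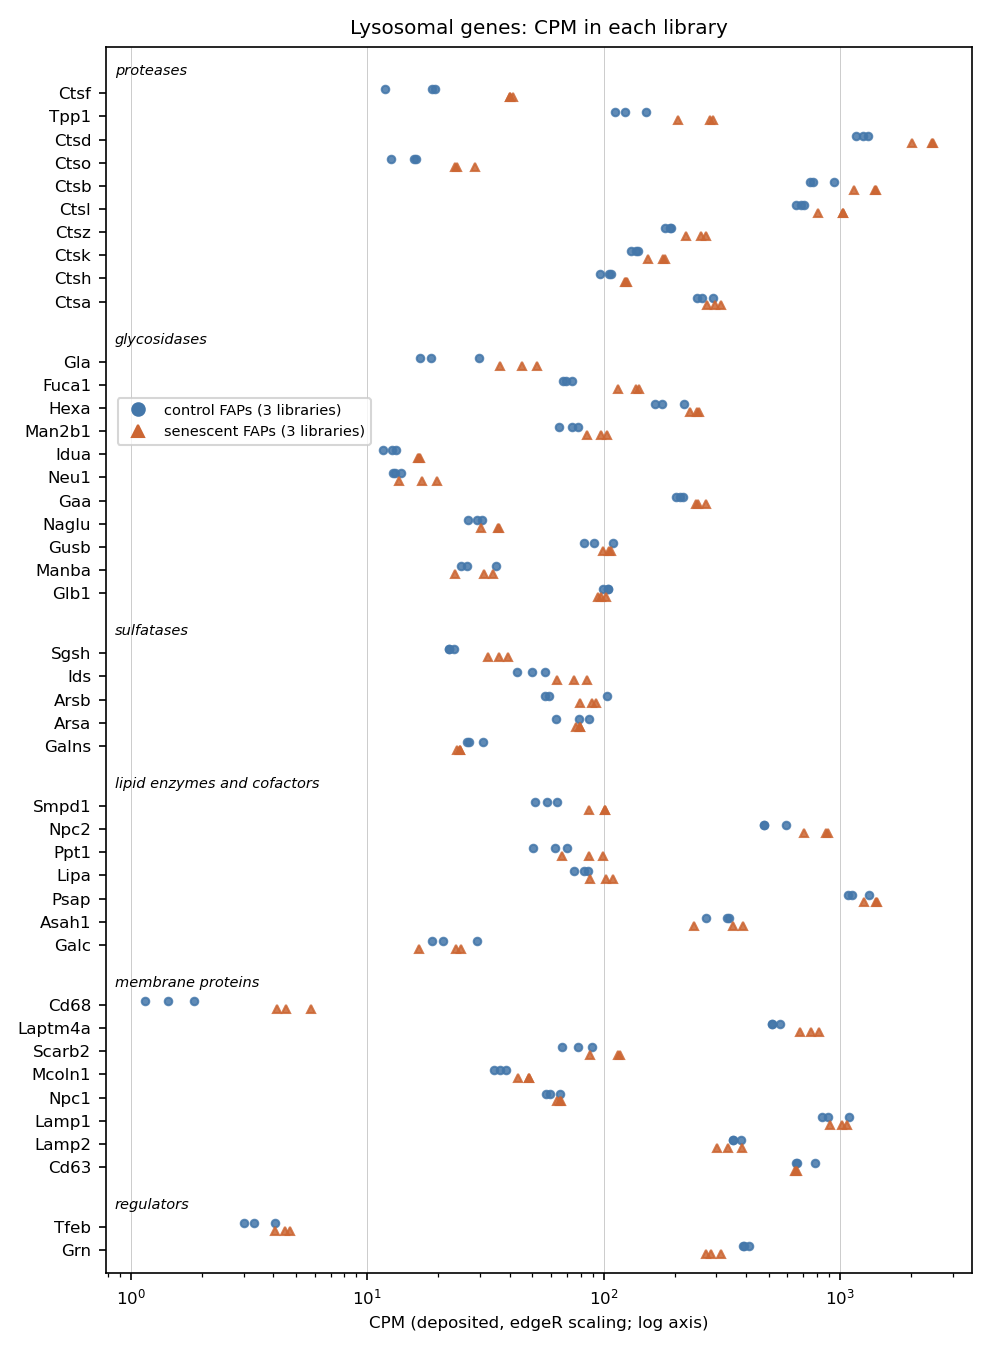
CPM of each of the 43 lysosomal genes in the 3 control (circles) and 3 senescent (triangles) libraries on a log axis, by role and ordered within a role by fold change. The protease triangles lie right of the circles for 9 of 10 genes, while the points of Glb1, Lamp1 and Lamp2 overlap and those of Grn are reversed.

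Among the roles of this set, proteases had the highest share called higher. Proteases outside the set, given with the other lists below, were mixed. The gene group held 9 listed cathepsins and Tpp1, and 9 of these 10 genes were higher in senescent FAPs, with a median log2 fold change of 0.59 and a range from 0.14 to 1.29. Ctsf encodes cathepsin F, a cysteine protease (chr19:4855130-4860918 in GENCODE M21, GRCm38). It was at 18.9, 11.8 and 19.3 CPM in control replicates 1, 2 and 3 and at 40.0, 40.0 and 41.2 CPM in senescent replicates 1, 2 and 3. The senescent libraries were nearly equal and each was far above the highest control. The log2 fold change was 1.29 (SE 0.18, limma adjusted p = 0.00127).

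Tpp1 encodes tripeptidyl peptidase 1, a serine protease whose loss causes a neuronal ceroid lipofuscinosis (chr7:105744811-105752235). Its levels were 112, 151 and 123 CPM in control replicates and 206, 282 and 290 CPM in senescent replicates, with no overlap. The log2 fold change was 1.00 (SE 0.16, limma adjusted p = 0.00222). Ctsd encodes cathepsin D, the main aspartic protease of the lysosome (chr7:142375911-142388038). It rose from 1166, 1314 and 1247 CPM in control replicates to 2022, 2460 and 2469 CPM in senescent replicates. All senescent libraries were far above the controls, and senescent replicate 1 was the lowest of the 3. The means were 1242 ± 73.9 and 2317 ± 255 CPM (SD, n = 3), a log2 fold change of 0.89 (SE 0.13, limma adjusted p = 0.00139). In the annotation 34.4% of the exon bases of Ctsd are shared with Gm49369 on the same strand, and how the authors' counting split such reads is not given in the sources used here.

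Ctsb, which encodes cathepsin B, a cysteine protease, was at 744, 943 and 769 CPM in control replicates and at 1153, 1410 and 1415 CPM in senescent replicates. The groups were apart, with a log2 fold change of 0.70 (SE 0.13, limma adjusted p = 0.00501). Exons of Fdft1 on the opposite strand cover 12.8% of its exon bases. Ctsl (cathepsin L) went from 654, 703 and 685 CPM to 805, 1033 and 1029 CPM, a log2 fold change of 0.48 (limma adjusted p = 0.0137). This call was lost without senescent replicate 2 or 3 (adjusted p up to 0.0612), and 26.8% of its exon bases overlap other annotated genes. Ctso was higher by 0.75, Ctsz by 0.41, Ctsk by 0.33 and Ctsh by 0.27 on the log2 scale, with limma adjusted p from 0.00311 to 0.0164. Ctsk, known as the collagen-degrading cathepsin of osteoclasts, was between 130 and 139 CPM in controls and between 155 and 182 CPM in senescent FAPs. Ctsk lost its call without senescent replicate 2 or 3, and Ctsh without control replicate 3 or senescent replicate 2. The protease without a call was Ctsa, the protective protein of beta-galactosidase and neuraminidase, whose log2 fold change was 0.14 (95% CI -0.07 to 0.35, limma adjusted p = 0.225).

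Glycosidases, which trim sugars from glycoproteins, glycolipids and glycosaminoglycans, split into 6 genes that were higher and 5 without a call, with none lower. Glb1 (chr9:114401076-114474898), the source of the senescence-associated stain, was among those without a call. It measured 105, 104 and 99.8 CPM in control replicates and 94.4, 103 and 97.7 CPM in senescent replicates. The 2 groups overlapped and every library lay within a narrow band. The means were 103 ± 2.62 and 98.3 ± 4.18 CPM (SD, n = 3) and the log2 fold change was -0.07 (SE 0.07, 95% CI -0.22 to 0.09, limma adjusted p = 0.453). Glb1 was called in none of the 19 alternatives, and its sign turned with the scaling, to 0.15 with library totals and 0.05 with quantile normalization. The paper reports greater staining in etoposide-treated FAPs than in control cells. The stain reads enzyme activity, which transcript levels do not measure.

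Gla encodes alpha-galactosidase A, the enzyme lacking in Fabry disease (chrX:134588149-134601125). It was at 18.5, 29.7 and 16.7 CPM in control replicates and at 36.3, 45.3 and 52.4 CPM in senescent replicates. Control replicate 2 was the highest control and still below every senescent library. The log2 fold change was 1.06 (SE 0.22, limma adjusted p = 0.00716). Fuca1, which encodes the lysosomal alpha-fucosidase (chr4:135920735-135940311), rose from 67.4, 73.8 and 69.2 CPM to 115, 141 and 137 CPM. Its groups were far apart, and it had the smallest adjusted p of the 43 genes (log2 fold change 0.89, SE 0.09, limma adjusted p = 4.32e-04).

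Hexa encodes the alpha subunit of beta-hexosaminidase, lacking in Tay-Sachs disease. It was at 165, 220 and 176 CPM in control replicates and at 233, 254 and 249 CPM in senescent replicates, a log2 fold change of 0.40 (limma adjusted p = 0.0219). The groups came close at control replicate 2, and the call was lost in 4 of the 6 fits that left out 1 library (control replicate 1 or 3, senescent replicate 2 or 3). Man2b1 (alpha-mannosidase) rose by 0.40, Idua (alpha-iduronidase) by 0.39 and Gaa (acid alpha-glucosidase, lacking in Pompe disease) by 0.28 on the log2 scale, with limma adjusted p from 0.0148 to 0.0156. Each of the 3 lost its call without senescent replicate 2, Man2b1 and Gaa also without control replicate 3, and Man2b1 without senescent replicate 3. Neu1 had a log2 fold change of 0.32, Naglu of 0.23, Gusb of 0.15 and Manba of 0.03, and none passed (limma adjusted p from 0.0949 to 0.886). With 1 library left out, the value of Manba ranged from -0.08 to 0.19.

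Of the 5 sulfatases, 2 were higher and none was lower. Sgsh encodes heparan N-sulfatase, which acts in heparan sulfate breakdown (chr11:119343425-119355536). It rose from 22.1, 23.3 and 22.1 CPM in control replicates to 32.3, 39.4 and 36.2 CPM in senescent replicates. Controls were almost identical and lay below every senescent library (log2 fold change 0.66, SE 0.10, limma adjusted p = 0.00152). Exons of Card14 on the opposite strand cover 21.6% of its exon bases. Ids encodes iduronate 2-sulfatase, which acts in the same pathway. It was at 42.9, 56.7 and 49.9 CPM in control replicates and at 63.5, 75.1 and 85.0 CPM in senescent replicates, again with no overlap (log2 fold change 0.58, SE 0.14, limma adjusted p = 0.0112).

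Arsb, which encodes arylsulfatase B, rested on 1 library. It was at 56.6, 104 and 58.9 CPM in control replicates and at 79.2, 89.7 and 92.5 CPM in senescent replicates. Control replicate 2 was above every senescent library, and the other controls were below all of them. The log2 fold change was 0.31 (limma adjusted p = 0.279), and without control replicate 2 it was 0.59 (limma adjusted p = 0.00149). Galns had the only negative value of the sulfatases at -0.19 (limma adjusted p = 0.124), with all senescent libraries below all controls, and was at 0.02 with library totals. Exons of other genes on the opposite strand cover 39.9% of the exon bases of Arsb. Arsa was at 0.06 (limma adjusted p = 0.711).

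Genes for lipid breakdown and its cofactors had 3 called higher of 7. Smpd1 encodes acid sphingomyelinase, which turns sphingomyelin into ceramide (chr7:105554360-105558389). It was at 51.0, 63.2 and 57.7 CPM in control replicates and at 87.1, 102 and 101 CPM in senescent replicates. The groups were well apart (log2 fold change 0.75, SE 0.10, limma adjusted p = 0.00123). Npc2, the soluble protein that hands cholesterol to NPC1 for export from the lysosome (chr12:84754562-84773152), rose from 475, 593 and 476 CPM to 708, 871 and 891 CPM. Every senescent library was above every control (log2 fold change 0.68, SE 0.13, limma adjusted p = 0.00503). Its membrane partner Npc1 did not pass, at 0.10 (95% CI -0.07 to 0.28, limma adjusted p = 0.302).

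The ratio of Npc2 to Npc1 within a library, which does not depend on the scaling between libraries, was 7.99, 9.10 and 8.34 in control replicates and 10.7, 13.8 and 13.6 in senescent replicates. This ratio was computed after the values were seen and is given as a description. Lipa, the lysosomal acid lipase that frees cholesterol from its esters, was at 75.1, 82.5 and 85.8 CPM in control replicates and at 88.0, 102 and 110 CPM in senescent replicates. The groups came close but did not overlap (log2 fold change 0.30, limma adjusted p = 0.0421). The call was lost without control replicate 1 or 3, senescent replicate 2 or 3, or the variance trend. Ppt1 (palmitoyl-protein thioesterase 1) was just outside the threshold at 0.47 (limma adjusted p = 0.0536) and passed with replicate number as a block (limma adjusted p = 0.00514). Over the 19 alternatives its adjusted p ran from 0.00267 to 0.174. Psap, the precursor of the saposins, had 0.22 (adjusted p = 0.162), Asah1 (acid ceramidase) 0.04 and Galc (galactosylceramidase) -0.07 on the log2 scale in the same limma fit. The signs of Asah1 and Galc turned without single libraries, and Galc was at 0.14 with library totals.

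Membrane proteins were mixed, with 4 of 8 higher, none lower and a median log2 fold change of 0.23. Cd68 (chr11:69664213-69666153), a heavily glycosylated lysosomal protein best known as a macrophage marker, had the largest rise of the 43 genes at one of the lowest levels. It was at 1.43, 1.84 and 1.15 CPM in control replicates and at 4.13, 5.79 and 4.52 CPM in senescent replicates, which is between 64 and 346 reads a library. The lowest senescent library was far above the highest control (log2 fold change 1.43, SE 0.19, limma adjusted p = 0.00113).

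Other macrophage and leukocyte markers were read beside Cd68. Of a list of 16, 9 genes were listed, and the defining markers Ptprc, Adgre1, Aif1, Tyrobp, C1qa, C1qb and C1qc were not. The summed level of the 9 was between 13.0 and 15.6 CPM in control libraries and between 27.6 and 34.7 CPM in senescent libraries. Lyz2 rose from 1.77 to 6.06 CPM, Cd53 from 1.99 to 11.4 CPM and Itgam from 0.0223 to 0.631 CPM. Itgam had at most 50 reads a library and passed the filter of 0.5 CPM only through the senescent libraries. Csf1r (6.74 and 7.56 CPM), Cd14 (2.53 and 3.53 CPM) and Cx3cr1 (0.457 and 0.517 CPM) had no call. Fcer1g (0.244 and 0.212 CPM), Mrc1 (0.302 and 0.675 CPM) and Lyve1 (0.197 and 0.874 CPM) were too low to be tested. The part of these markers in the Cd68 result was not tested.

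Laptm4a, a small transporter-like protein of late endosomes and lysosomes (chr12:8921664-8938742), was at 518, 518 and 558 CPM in control replicates and at 679, 756 and 814 CPM in senescent replicates. The groups were apart (log2 fold change 0.49, SE 0.10, limma adjusted p = 0.00507). Scarb2 encodes LIMP-2, the receptor that carries glucocerebrosidase to the lysosome. It was at 66.5, 89.2 and 77.8 CPM in control replicates and at 87.5, 118 and 115 CPM in senescent replicates. Senescent replicate 1 fell below control replicate 2, and the call (log2 fold change 0.45, limma adjusted p = 0.0368) was lost in 4 of the 6 fits that left out 1 library (control replicate 1 or 3, senescent replicate 2 or 3) and without the variance trend. Mcoln1, a lysosomal calcium channel, was higher by 0.35 (limma adjusted p = 0.0120), and this call was lost without senescent replicate 2.

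The structural membrane proteins had no call. Lamp1 was at 842, 1097 and 890 CPM in control replicates and at 907, 1018 and 1075 CPM in senescent replicates. Control replicate 2 was the highest of the 6 libraries, and the log2 fold change was 0.09 (SE 0.13, 95% CI -0.21 to 0.39, limma adjusted p = 0.593). Lamp2 was at -0.09 (95% CI -0.33 to 0.15) and Cd63, a tetraspanin of late endosomes and exosomes, at -0.10 (95% CI -0.32 to 0.13), with limma adjusted p of 0.501 and 0.451. Both values were 0.12 with library totals, so neither has a direction here. Lamp1, Lamp2 and Cd63 were called in none of the 19 alternatives.

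Of the 2 regulators, Grn was lower and Tfeb had no call. Tfeb, which encodes the lysosomal transcription factor (chr17:47737030-47792419), was at 4.08, 3.31 and 3.02 CPM in control replicates and at 4.47, 4.07 and 4.73 CPM in senescent replicates, or 168 to 243 reads a library. The groups met at control replicate 1, and the log2 fold change of 0.32 (SE 0.15, 95% CI -0.04 to 0.67) did not pass (limma adjusted p = 0.129). Grn (chr11:102430315-102437048) encodes progranulin, a secreted protein that is cut into granulins in the lysosome. It fell from 391, 414 and 391 CPM in control replicates to 271, 312 and 285 CPM in senescent replicates. Every senescent library was below every control, and the means were 399 ± 13.2 and 290 ± 20.9 CPM (SD, n = 3). The log2 fold change was -0.46 (SE 0.08, limma adjusted p = 0.00326), and Grn was called lower in all 19 alternatives, library totals included.

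**Figure D2:**
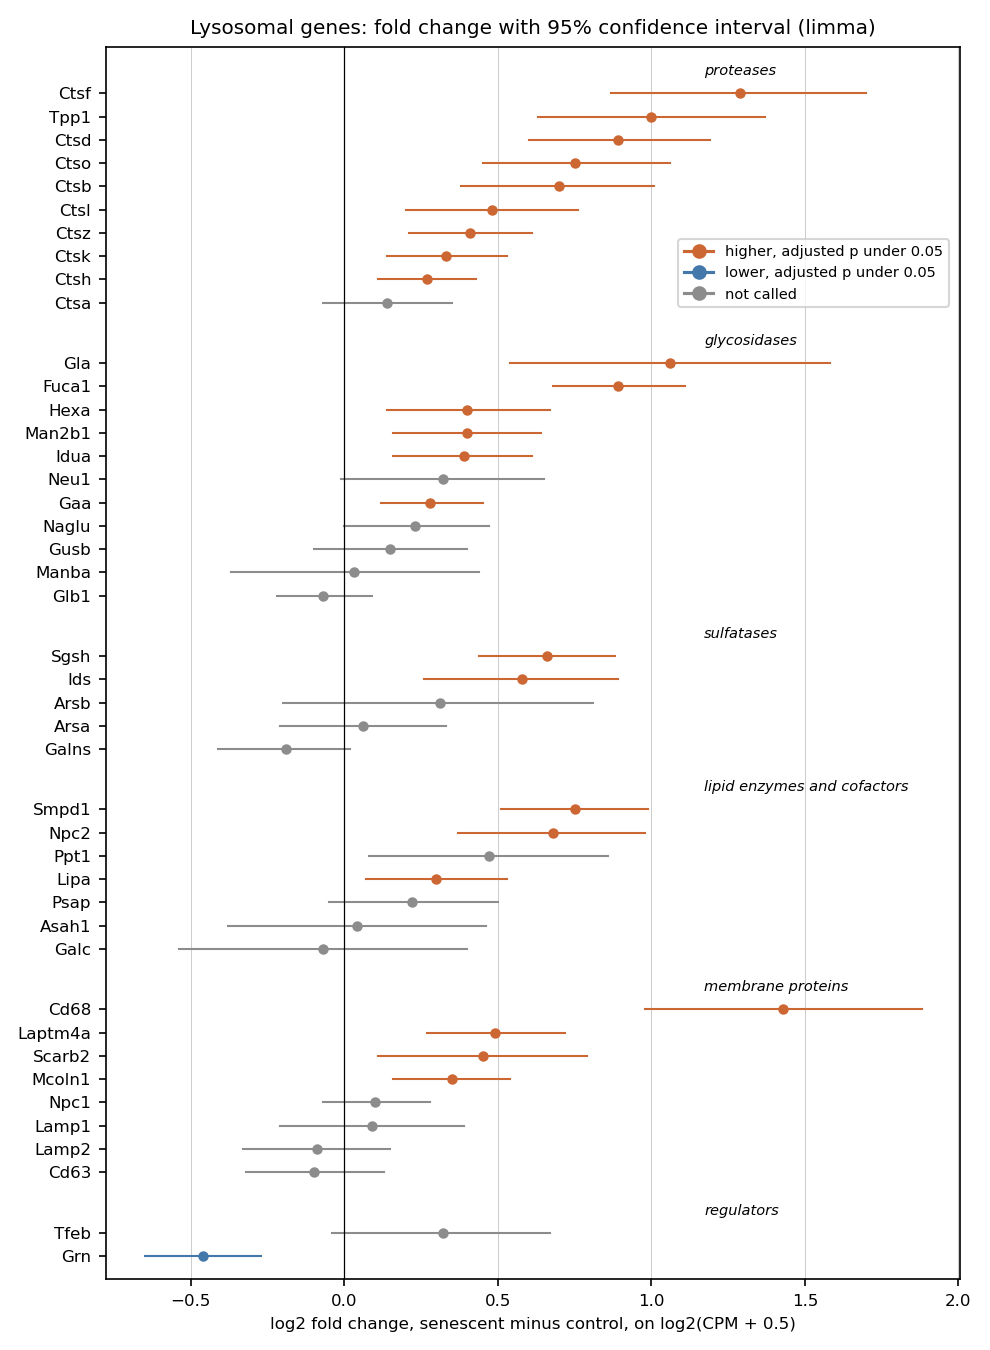
Log2 fold change of each lysosomal gene (senescent minus control, log2(CPM + 0.5)) with its 95% confidence interval from limma, colored by call at an adjusted p under 0.05. Of the 43 points, 24 are called higher, Grn alone is called lower, and the intervals of Glb1, Lamp1, Lamp2 and Cd63 hold 0.

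Summed over all 43 genes, lysosomal transcripts made up 9450, 10906 and 9741 CPM in control replicates and 11804, 13854 and 14016 CPM in senescent replicates. The sums did not overlap, and the means were 10032 ± 771 and 13225 ± 1233 CPM (SD, n = 3), a 1.32-fold difference (exact two-sided permutation p = 0.1, the smallest 3 against 3 allows). As a share of the reads on genes, the sum was 0.933% in control and 1.42% in senescent libraries, and division by library totals alone gave 1.53-fold. Ctsd alone gave 33.7% of the summed rise, Ctsb 15.9%, Npc2 9.65% and Ctsl 8.60%. A further sum left out Ctsb, Ctsd, Ctsl and Psap (6.04% of the rise) and kept Npc2. It was 6110 ± 449 CPM in control and 7254 ± 613 CPM in senescent libraries (SD, n = 3). The groups of this 1.19-fold difference overlapped (exact two-sided permutation p = 0.2). Taken in pairs of the same replicate number, this sum was higher in the senescent library in 3 of 3 pairs (exact two-sided sign-flip p = 0.25, the smallest 3 pairs allow).

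By role, protease transcripts went from 3596 ± 232 to 5765 ± 639 CPM (SD, n = 3), or 1.60-fold. Glycosidases went up 1.27-fold, lipid enzymes and cofactors 1.27-fold, and sulfatases 1.21-fold in the means. Membrane proteins had 2712 ± 210 and 2967 ± 206 CPM (SD, n = 3), a ratio of 1.09 with overlapping libraries. The exact two-sided permutation p was 0.1 for proteases, glycosidases and sulfatases and 0.2 for lipid genes and membrane proteins, so no role can pass 0.05 in this design. The lipid and membrane sums were also higher in the senescent library of 3 of 3 same-numbered pairs (exact sign-flip p = 0.25 each).

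**Figure D3:**
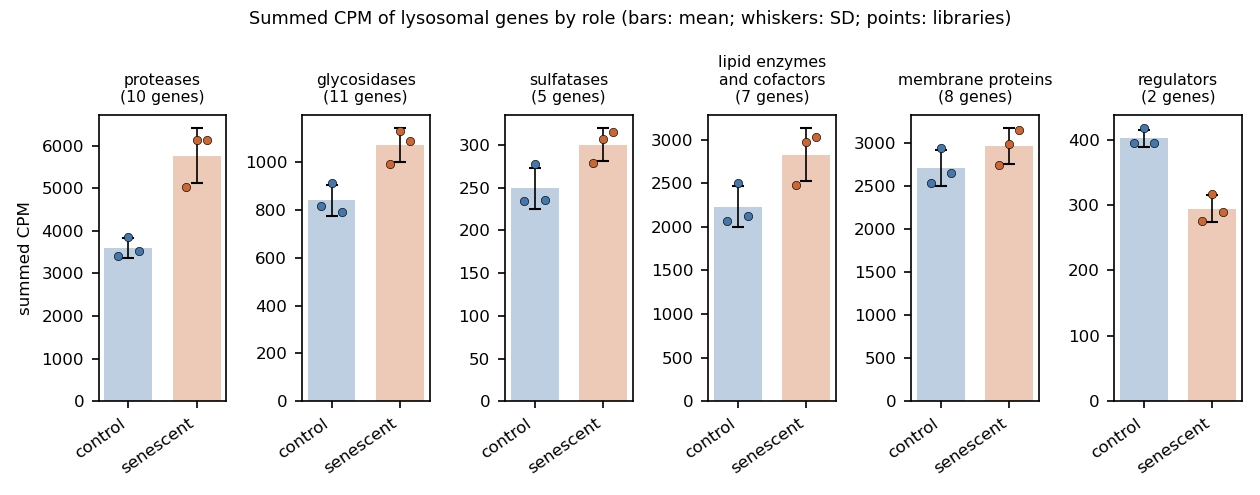
Summed CPM of the lysosomal genes of each role in control and senescent FAPs; bars are means of 3 libraries, whiskers the SD and points the libraries. Proteases stand highest and furthest apart (3596 against 5765 CPM), and membrane proteins overlap.

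Ratios within a library do not depend on the scaling between libraries. These gene pairs were chosen after the values of their genes were seen, so the ratios describe results already given, with no test. Ctsd over Glb1 was 11.2, 12.6 and 12.5 in control replicates and 21.4, 23.9 and 25.3 in senescent replicates. Ctsb over Lamp1 was 0.884, 0.860 and 0.864 in control replicates and 1.27, 1.39 and 1.32 in senescent replicates. In neither ratio did the groups overlap. Of the 7 ratios computed, Ctsd over Grn had the widest gap, from 3.12 ± 0.112 to 7.99 ± 0.614 (SD, n = 3).

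Levels between genes were compared per kilobase of the longest principal transcript. In control FAPs Cd63 was highest at 630 CPM per kilobase and Ctsd second at 584, and in senescent FAPs Ctsd was first at 1089 and Cd63 second at 588. Psap, Lamp1, Laptm4a and Ctsb kept the places from 3 to 6 in both groups. Grn went from place 7 to place 10. Glb1 stood at place 18 in control and 20 in senescent FAPs, and Cd68 and Tfeb held the bottom 2 places in both, at 1.20 and 1.51 CPM per kilobase in control FAPs.

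Libraries within a group were ordered alike across many of these genes. Control replicate 2 was the highest control for 28 of the 43 genes, or 65.1%, against 38.9% of all tested genes. Senescent replicate 1 was the lowest senescent library for 34, or 79.1%, against 37.3%. Leaving out senescent replicate 2 left 14 lysosomal genes called higher, and leaving out control replicate 2 gave 28. In the same fits the count over all tested genes moved from 3218 to 2130 and to 3405, so calls changed generally. The 14 genes called higher in every one of the 19 alternatives were Ctsb, Ctsd, Ctsf, Ctso, Ctsz, Tpp1, Gla, Fuca1, Ids, Sgsh, Smpd1, Npc2, Cd68 and Laptm4a.

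Other lysosomal gene lists were set beside these 43 genes. Among all tested genes 21.8% were called higher and 24.3% lower. Of 30 other enzymes and cofactors, 11 were higher (36.7%) and 2 lower (6.67%), with a median log2 fold change of 0.26. Proteases and peptidases of this list were mixed, and were picked out after their values were seen. Ggh (0.70) and Dpp7 (0.65) were higher and Prcp (-0.61) was lower on the log2 scale. Ctsc (-0.37), Ctsw (-0.19), Scpep1 (-0.12) and Lgmn (-0.11) had no call. Hyal1, a hyaluronidase, rose by 2.07 and Gm2a, the activator that presents GM2 ganglioside to beta-hexosaminidase, by 1.10, while Prcp fell by 0.61 and Sumf2 by 0.41 on the log2 scale (limma adjusted p from 1.79e-04 to 0.00587). Of 20 other membrane proteins tested, 12 were higher (60.0%) and none lower, led by Cln3 at 1.40 and Laptm4b at 1.00. Gpnmb, a glycoprotein used as a marker of lysosomal stress, had a larger value of 1.50 but did not pass (limma adjusted p = 0.0635); it was singled out after its value was seen.

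Of 18 vacuolar ATPase subunits and accessory proteins, 10 were higher (55.6%) and 1 was lower (5.56%), with a median log2 fold change of 0.36. Atp6v0e2 rose by 2.08 and Atp6v1a, the catalytic A subunit, by 0.72. Atp6v0a2 was at -0.19 (limma adjusted p = 0.0402), a call lost under other scalings. Of 12 sorting genes 2 were higher and 2 lower (16.7% each), with a median of -0.05. Both shares were below those of all tested genes (21.8% higher, 24.3% lower). Sort1, which encodes sortilin, rose by 1.36 and Gnptg by 0.38 on the log2 scale. M6pr, the cation-dependent mannose 6-phosphate receptor, fell by 0.54 and Gga2, an adaptor for these receptors at the Golgi, fell by 0.54. Igf2r, the other mannose 6-phosphate receptor, was at 0.33 without a call (limma adjusted p = 0.131).

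Relatives of TFEB and the nutrient-sensing genes on the lysosome had 4 of 16 higher and 1 lower. Rragd rose by 1.18 and Mitf by 0.94, Lamtor5 fell by 0.28, and Tfe3 was at 0.05 without a call on the log2 scale. With library totals 12 of the 16 were higher, against 4992 of all 14776 tested genes, so this list depends on the scaling. The difference between lists was not tested.

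**Figure D4:**
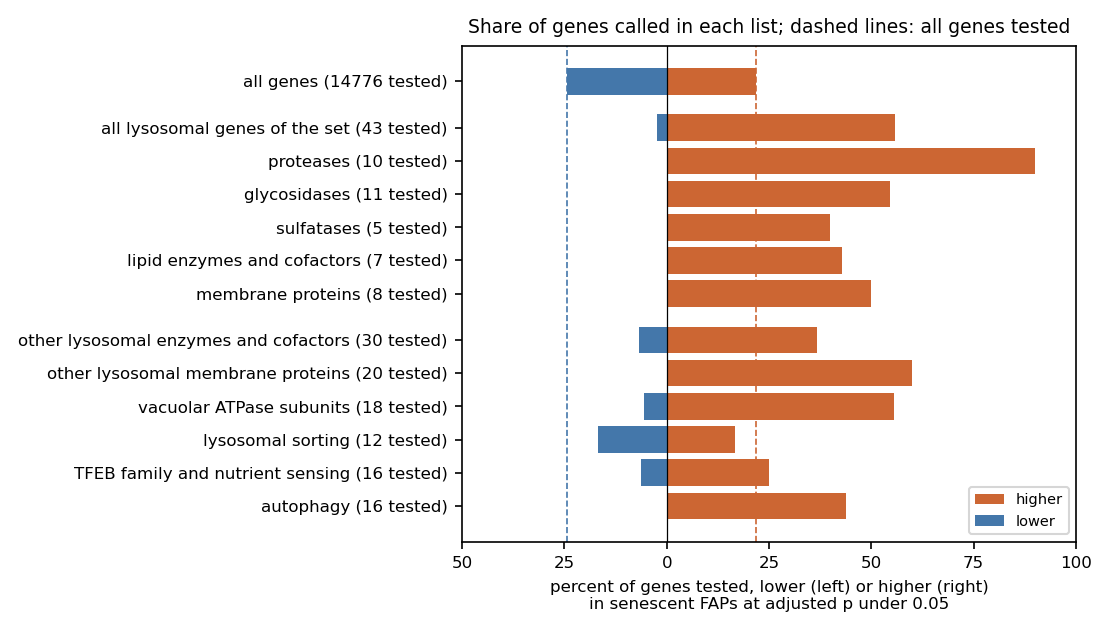
Percent of the tested genes of each list called higher (right) or lower (left) in senescent FAPs at a limma adjusted p under 0.05; dashed lines mark all 14776 tested genes (21.8% higher, 24.3% lower). Proteases of the set reach 90% higher, and sorting genes lie at 16.7% in each direction.

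The libraries had 41412179 to 59912520 reads on genes, with scaling factors from 0.917 to 0.940 in control and from 1.07 to 1.09 in senescent libraries. All 8 FAP markers were listed, with 4 higher and 1 lower in senescent FAPs. Ly6a, which encodes SCA-1, rose from 372 to 625 CPM, Cd34 from 22.5 to 70.1 CPM, Dcn from 62.3 to 197 CPM and Lum from 0.535 to 3.39 CPM in the means, while Col1a1 fell from 15545 ± 5576 to 3116 ± 876 CPM (SD, n = 3). Pdgfra (192 and 218 CPM) and Pdgfrb (1010 and 865 CPM) were not called. Nor was Thy1, for which replicate 1 stood apart in both groups, at 489 and 615 CPM against 41.3 to 73.6 CPM in the other libraries. Of 7 myogenic markers Itga7 and Des were listed, and Itga7, the gene of the integrin used to deplete cells in the sort, rose from 11.1 to 20.2 CPM. Of 6 endothelial markers 5 were listed, with Pecam1 higher (0.706 and 1.70 CPM) and Kdr lower (4.05 and 2.21 CPM), summing to between 21.2 and 41.7 CPM in control and between 25.7 and 32.3 CPM in senescent libraries. Cdkn1a, the p21 gene, went from 290 to 1038 CPM and Mki67 from 158 to 12.7 CPM, both called. Cdkn2a, at 85.5 and 90.0 CPM, was not. The paper reports more p16, encoded by Cdkn2a, by qPCR in etoposide-treated FAPs. A count per gene does not separate the transcripts of Cdkn2a, so the measures differ.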

How the data were processed

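The authors prepared stranded mRNA libraries, sequenced them, counted reads per gene and deposited a signal per gene and library, CPM with edgeR's scaling included. Their processing notes name mm10, R 3.6.0 and edgeR 3.10. The aligner, counter, annotation, low-count filter and use of strand are not given in the sources used here. Each value was a whole multiple of 1 read (tolerance 0.001) in 100% of cases, so reads were recovered. A line naming no gene (0.0041% to 0.0070% of reads) was left out. Columns of no sample numbered 0. Counts of replicates differed far beyond sampling noise (chi-square per gene 15.1 to 163).

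The values, log2(CPM + 0.5), entered limma 3.58.1 in R 4.3.3 with a variance trend, two-sided, after a filter of 0.5 CPM in 3 or more libraries had kept 14776 genes, and p values had Benjamini-Hochberg adjustment. The plan assumed plain CPM; this test was kept for the scaled CPM found. The script was tested on simulated data. Alternatives were pseudocounts of 0.1 and 1, no filter or 2 CPM, median-of-ratios scaling, library totals, quantile normalization, leaving out each library, a replicate block, array weights, no trend, and edgeR 4.0.16 (quasi-likelihood and likelihood-ratio) and DESeq2 1.42.0 on recovered reads. Replicate numbers come from the sample titles. Same-numbered libraries deviated together (correlations 0.537, 0.308 and 0.207), while the other pairings ran from -0.357 to 0.153. The numbers were taken as pairs only in the replicate block and in the paired readings of the summed CPM. The main fit was unpaired.

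Coordinates and lengths are from GENCODE M21 (GRCm38). The genes, lists and tests were chosen with earlier results of these data known. Values in every library are given for Glb1, Tfeb, Cd68 and Lamp1 and, per role, for up to 3 genes with the largest rise and 2 with the largest fall at an adjusted p under 0.05. From each other list the 2 largest rises and 2 largest falls past the same threshold are named by their fold changes. The library values of Ctsb, Ctsl, Arsb and the other genes were added after their values were seen.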

Additional observations from a re-analysis of the deposited data

How the results depend on the processing

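The direction of every called lysosomal gene held under all 19 alternatives, and 14 of the 24 genes called higher, with Grn, kept their calls throughout. The count of genes called higher stayed between 22 and 33 apart from the fits that left out 1 library, where it was 14 to 28 (14 without senescent replicate 2), and 1 gene was lower in each fit. With replicate number as a block 25 genes were higher, Ppt1 being the gain, and 1 subunit of the vacuolar ATPase list lost its call; the block changed no other call among the 43 genes. Taking same-numbered libraries as pairs, chosen after seeing the data, gave a summed CPM ratio of 1.32.

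With library totals 4992 genes were higher and 1929 lower, so that 72.1% of all calls were higher against 47.3%, and the summed CPM ratio was 1.53. Counts of genes higher were then 5 for lipid enzymes, 1 for regulators, 17 for other enzymes, 4 for sorting, 12 for the TFEB family and 11 for autophagy, and counts lower were 1 for other enzymes and 0 for the TFEB family. Quantile normalization gave 5 lipid genes and 7 TFEB family genes higher. Array weights gave 5 lipid genes and 1 regulator higher, and 1 other membrane protein, 2 TFEB family and 2 autophagy genes lower. The block, DESeq2 and the likelihood-ratio test each gave 1 autophagy gene lower, and the likelihood-ratio test 0 TFEB family genes lower. The lower call of the vacuolar ATPase list became 0 with median-of-ratios scaling, library totals, quantile normalization, the block, no trend, both edgeR tests and DESeq2. The cause was not tested beyond the scaling itself.

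Leaving out 1 library gave 2130 to 3405 genes higher and 2416 to 3875 lower, 2 to 4 lysosomal genes past the fold threshold, and a summed ratio of 1.28 to 1.39. Genes higher were 6 to 9 proteases, 2 to 8 glycosidases, 2 to 3 sulfatases, 2 to 5 lipid genes and 2 to 4 membrane proteins. In the other lists genes higher were 7 to 14 enzymes, 7 to 12 membrane proteins, 5 to 11 ATPase subunits, 1 to 2 sorting genes, 2 to 3 of the TFEB family, 2 to 3 cystatins and 7 to 8 autophagy genes, and genes lower were 2 to 3 enzymes and 0 to 1 each of membrane proteins, ATPase subunits, the TFEB family and autophagy.

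Signs turned only among genes without a call: Glb1 to 0.15 (library totals), 0.05 (quantile) and 0.00 (array weights), Galns to 0.02 (totals), Galc to 0.14 (totals), 0.12 (array weights) and between -0.20 and 0.11 without 1 library, Lamp2 to 0.12 (totals) and 0.07 (quantile), Cd63 to 0.12 (totals) and 0.14 (quantile), and without 1 library Arsa ranged from -0.07 to 0.16, Manba from -0.08 to 0.19 and Asah1 from -0.09 to 0.25. Cd68 and Tfeb had at most 346 and 243 reads a library.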

Other observations

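Autophagy genes, whose products deliver cargo to the lysosome, had 7 of 16 called higher in senescent FAPs and none lower, a share of 43.8% against 21.8% of all tested genes. Gabarapl1, which encodes an autophagosome protein of the LC3 family, was at 71.4, 61.7 and 79.3 CPM in control replicates and at 124, 123 and 131 CPM in senescent replicates. The cargo receptor gene Sqstm1 (p62) was at 343, 320 and 365 CPM in control replicates and at 530, 628 and 646 CPM in senescent replicates. Neither gene had overlapping groups, and the log2 fold changes were 0.83 and 0.81 (limma adjusted p = 7.03e-04 and 8.94e-04). Map1lc3b, Gabarapl2, Atg7, Atg12 and Nbr1 were the other genes called higher. Atg9a, which encodes a membrane protein of early autophagosome formation, had a negative value of -0.49 that did not pass (limma adjusted p = 0.0565).

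Of the 3 cystatins, which inhibit cysteine cathepsins, 2 were higher. Cst6 was at 0.536, 3.39 and 1.02 CPM in control replicates and at 7.41, 13.1 and 14.0 CPM in senescent replicates, with groups apart (log2 fold change 2.67, SE 0.47, limma adjusted p = 0.00348). Cst3, which encodes the secreted cystatin C, was at 116, 118 and 117 CPM in control replicates and at 176, 155 and 167 CPM in senescent replicates. The log2 fold change of Cst3 was 0.50 (limma adjusted p = 0.00148), and that of Cstb was 0.24 without a call.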
